A study of Mus musculus with 8 samples.

Results

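Zinc finger genes named Zfp or Zscan were compared between N2a cells, a mouse neuroblastoma line, transfected with miR RNAi vectors against Grp94 (Hsp90b1, the Hsp90 chaperone of the endoplasmic reticulum) and N2a cells that received a vector control (Vector). The members were chosen by symbol: every transcript cluster of the deposited table with a symbol starting Zfp or Zscan was taken, which gave 30 of 2395 listed clusters (1.25%). A transcript cluster is a group of array probes to which the table gives the symbol of 1 gene or of several genes. Genes that share a cluster can be copies with like sequence or, as with Zfp142 and Plcd4, genes of different families. The table itself was selected by the authors on the p of this same contrast, so the values of the members are a description and no test was applied to them.

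Affymetrix Mouse Gene 1.0 ST arrays were used to measure total RNA, with 4 arrays of Vector and 4 of Grp94 knockdown. All cells were transfected, and no untransfected cells were among the 8 arrays. Several Grp94 constructs and control vectors are described in the study's methods, but the construct behind each array is not labelled, nor whether arrays stand for separate cultures. The values used were the authors' log2 means of each group, centred for each transcript cluster. They carry no level of expression, so members cannot be ranked by abundance, and the spread between arrays is unknown here.

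C2H2 zinc finger proteins bind DNA through repeated small domains that each hold a zinc ion, and they form the largest family of transcription factors in mammals. Many carry a KRAB domain, which recruits the corepressor Trim28 (KAP1) and through it the H3K9 methyltransferase Setdb1, and these proteins are known for silencing transposable elements. Others carry a SCAN domain, through which they pair with each other. KRAB zinc finger genes arose by local duplication and lie in clusters on the chromosomes, so neighbours are often alike in sequence.

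The knockdown itself was seen in the table. Hsp90b1 had a mean of 0.74 in Vector and -0.78 in Grp94 knockdown, a difference of -1.52. Of 16 neuroblast and neuronal markers, 4 were listed, among them the catecholamine enzymes Dbh (0.49) and Th (-0.12), the neuroblast factor Hand2 (0.26) and the microtubule regulator Stmn2 (-0.17). None of 9 markers of glia, endothelium, fibroblasts and blood cells was listed. Because a listed gene had to pass the authors' limits, the table cannot check the cell type by its levels, and in bulk RNA a change in the share of cells cannot be told apart from a change in RNA per cell.

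Of the 30 zinc finger clusters, 24 (80%) had a higher mean in Grp94 knockdown and 6 a lower one, whereas the mean was higher for 40.1% of all listed clusters (961 of 2395). The median difference of the members, knockdown minus Vector on the log2 scale, was 0.19, against -0.16 for all listed clusters. The differences were small, from -0.54 to 0.38, and 18 members lay within a fold of 1.2. Small size was common to the table, with a median absolute difference of 0.23 for the members and 0.25 for all listed clusters. The share of all listed clusters within a fold of 1.2 is not given here. Only the Zfp142 row passed a fold of 1.3 upwards, beside 6.26% of all listed clusters, and only Zfp180 passed it downwards, beside 16.1%. The direction and the size of the difference belong to the contrast that chose the listed rows, so nothing further was read from these shares.

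The promoters of 3 sets of members are shown first, because they are the members that lie together or that lie farthest down. Sequences are from RefSeq, 5′ to 3′ on the strand of the gene. RefSeq promoters, from 250 bases before to 50 after the annotated start, were matched for 23 of the 34 Zfp or Zscan symbols in the member rows. Capitals mark CCAAT, the letters bound by NF-Y, which reads ATTGG when it lies on the opposite strand, and an element of 12 bases, ACTACA followed by any 2 bases and TCCC, which reads GGGA, any 2 bases and TGTAGT on the opposite strand. CCAAT was searched because the study concerns NF-Y, whereas the ACTACA element was picked after these promoters had been read. Its letters are known as the core of the element bound by ZNF143 and ZNF76.

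Zfp799 and Zfp81, neighbours on chromosome 17, are shown over the 70 bases before the start and the 30 from it.
Zfp799, GRCm38.p6 chr17:32830232-32830331, minus strand: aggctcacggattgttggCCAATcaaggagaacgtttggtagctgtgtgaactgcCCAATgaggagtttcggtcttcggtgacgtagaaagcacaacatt
Zfp81, GRCm38.p6 chr17:33358849-33358948, minus strand: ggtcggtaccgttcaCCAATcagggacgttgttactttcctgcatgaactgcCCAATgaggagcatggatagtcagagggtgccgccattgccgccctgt

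Both promoters held a pair of CCAAT words on the strand of the gene, at -52 and -15 in Zfp799 and at -55 and -18 in Zfp81, counted from the start base as 0. The words were 37 bases apart in both. Over the 42 bases from the first word to the end of the second, 30 positions were identical. Such a pair was found in 19 of 17492 protein-coding genes with a promoter (0.109%) and in 4 of 347 Zfp or Zscan genes of the reference (1.15%). Both counts include Zfp799 and Zfp81 themselves, the 2 members with such a pair. The spacing was looked for only after it had been seen in these members, so the shares are a description.

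Zfp456, Zfp748 and Zfp738 of the chromosome 13 group, and the members with the lowest differences and a promoter, Zfp420 and Zfp180, are shown over the 60 bases around the ACTACA element.
Zfp456, GRCm38.p6 chr13:67375797-67375856, minus strand: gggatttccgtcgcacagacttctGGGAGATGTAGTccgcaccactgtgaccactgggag
Zfp748, GRCm38.p6 chr13:67553143-67553202, minus strand: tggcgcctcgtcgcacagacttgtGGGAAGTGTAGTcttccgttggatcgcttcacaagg
Zfp738, GRCm38.p6 chr13:67683533-67683592, minus strand: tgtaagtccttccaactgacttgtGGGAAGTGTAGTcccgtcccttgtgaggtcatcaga
Zfp420, GRCm38.p6 chr7:29859896-29859955, plus strand: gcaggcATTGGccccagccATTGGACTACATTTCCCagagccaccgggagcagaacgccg
Zfp180, GRCm38.p6 chr7:24081850-24081909, plus strand: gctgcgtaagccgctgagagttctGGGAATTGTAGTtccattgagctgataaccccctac

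All 5 hold the element. Zfp456 and Zfp748 had higher means in Grp94 knockdown and Zfp420 and Zfp180 lower ones, while Zfp738 was measured only in a higher row that it shares with other genes. In Zfp420 it directly follows a CCAAT word on the opposite strand.

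Zscan4c, Zscan4d and Zscan4f are shown over 100 bases around their CCAAT word because the same probes stand for all of them.
Zscan4c, GRCm38.p6 chr7:11005643-11005742, plus strand: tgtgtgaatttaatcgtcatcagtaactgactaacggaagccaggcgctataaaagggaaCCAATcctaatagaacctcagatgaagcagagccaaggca
Zscan4d, GRCm38.p6 chr7:11166162-11166261, minus strand: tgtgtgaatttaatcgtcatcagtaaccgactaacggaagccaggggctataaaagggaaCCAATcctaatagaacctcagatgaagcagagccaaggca
Zscan4f, GRCm38.p6 chr7:11397836-11397935, plus strand: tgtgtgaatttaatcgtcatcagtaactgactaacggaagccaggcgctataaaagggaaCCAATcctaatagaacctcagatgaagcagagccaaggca

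The Zscan4c and Zscan4f stretches were identical in 100 of 100 positions, and Zscan4d differed from each in 2. Their annotated starts differ, so that the word lies at -42 in Zscan4c, -53 in Zscan4d and -19 in Zscan4f.

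**Figure D1:**
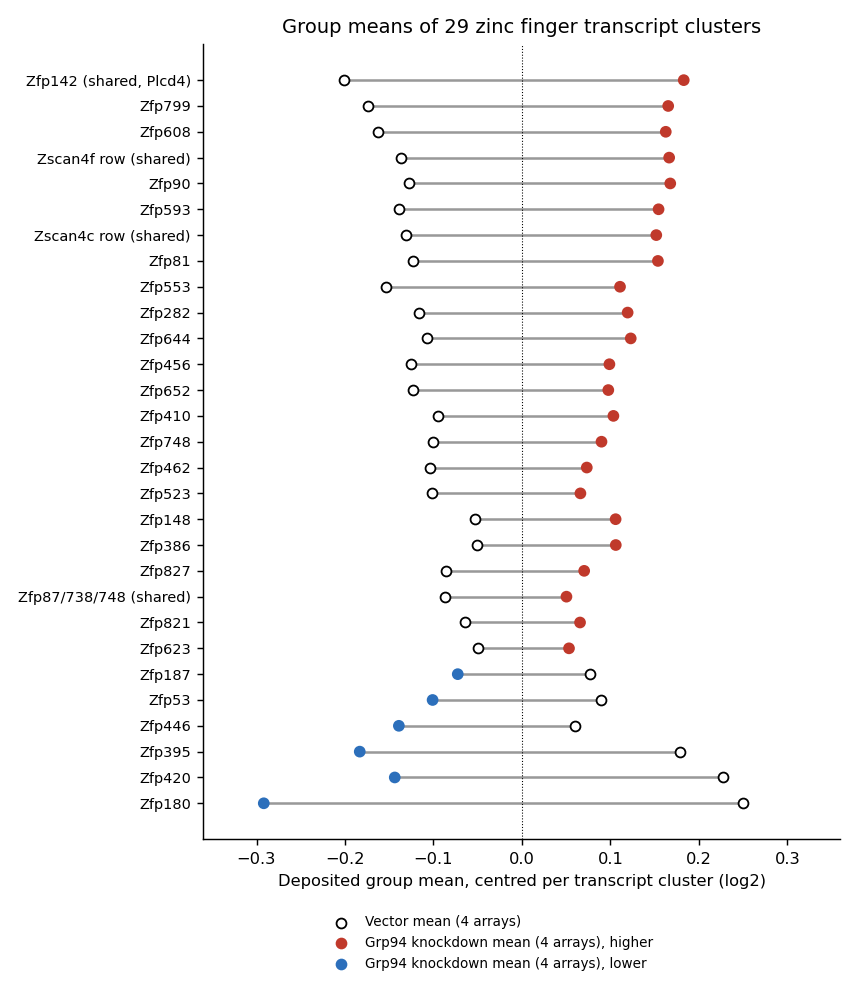
Deposited mean of Vector (open circles) and Grp94 knockdown (filled circles) for 29 zinc finger transcript clusters, in centred log2 units, with no error bars because no values per array were used. In 23 rows the knockdown mean lies above 0 and the Vector mean below it, and in the 6 rows at the bottom, down to Zfp180, the order is turned. Since rows are centred, this order mostly restates the direction of each difference.

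The highest difference among the members was that of a row shared by Zfp142 and the phospholipase C gene Plcd4. Its mean was -0.20 in Vector and 0.18 in Grp94 knockdown, a difference of 0.38 or 1.31-fold. The row lies at 74611702 to 74634602 on the minus strand of chromosome 1, in the positions of the table, whose genome build is not stated. Which of the 2 genes carried the difference cannot be told from this row. Zfp799 came next, just inside a fold of 1.3, with means of -0.17 and 0.17 and a difference of 0.34.

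Zfp608, a large zinc finger gene on chromosome 18 (55047702 to 55152245), had means of -0.16 in Vector and 0.16 in knockdown, a difference of 0.33. Zfp90, a KRAB zinc finger gene on chromosome 8 (108939239 to 108949789), had means of -0.13 and 0.17, a difference of 0.29. Zfp593, whose product takes part in the making of ribosomes, had means of -0.14 and 0.15 at chromosome 4, 133799221 to 133801443, also a difference of 0.29. In each of these genes the Vector mean lay below 0 and the knockdown mean above it, as in all 24 higher rows. Because each row was centred, this order mostly restates the direction of the difference.

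Several higher members are known for links to chromatin regulators. Zfp644 (0.23) and Zfp462 (0.18) encode partners of the H3K9 methyltransferases G9a and GLP. Zfp410 (0.20) encodes an activator of Chd4, the ATPase of the NuRD complex, and Zfp827 (0.16) a protein that brings NuRD to telomeres. Zfp652 (0.22) encodes a partner of the corepressor CBFA2T3. These genes were picked from among the higher members by what is known of them, so their common direction is not a result.

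Other higher members bind promoters or viral sequence. Zfp148 (0.16), also known as ZBP-89, binds GC-rich promoters. Zfp523 (0.17) is the mouse counterpart of ZNF76, which binds the ACTACA element shown above. Zfp282 (0.24) is the counterpart of HUB1, which binds the long terminal repeat of a retrovirus. The remaining higher members were Zfp553 (0.26), Zfp386 (0.16), Zfp821 (0.13) and Zfp623 (0.10), the last being the higher member nearest to 0.

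Zscan4 genes are known from the 2-cell embryo and from rare embryonic stem cells, in which they act at telomeres. They were listed in 2 rows, which name the same 5 genes: Zscan4c, Zscan4d, Zscan4e, Zscan4f and Zscan4-ps2. The row at 11380154 to 11383616 on the minus strand of chromosome 7 had means of -0.14 in Vector and 0.17 in Grp94 knockdown, a difference of 0.30. The row at 11591094 to 11595896 on the plus strand had means of -0.13 and 0.15, a difference of 0.28. Because the probes of both rows can bind RNA of several copies, the rows are not separate observations, and which copy was measured cannot be told.

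The Zscan4 rows lay within 216 kb, with no other listed row within 1 Mb. Over the whole promoter windows, the promoters of Zscan4c and Zscan4d were identical in 90.4% of aligned positions, Zscan4c and Zscan4f in 85.1%, and Zscan4d and Zscan4f in 77.5%. These windows are set by annotated starts that do not line up between the copies, unlike the stretches printed above. The next member on the chromosome, Zfp446, lay 1967 kb away and had the opposite direction.

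The members lay on 14 chromosomes. Chromosome 7 held 6 of them (20%, against 7.93% of all listed rows), 3 higher and 3 lower. Chromosome 13 held 5 (16.7%, against 4.26%), of which 4 were higher, and chromosome 17 held 4 (13.3%, against 4.68%), of which 3 were higher. All 3 members on chromosome 8 (Zfp90, Zfp821 and Zfp827) were higher. The 6 rows on chromosome 7 include the 2 Zscan4 rows, which are not separate observations. How all Zfp and Zscan genes of the reference are spread over the chromosomes is not given here. The shares by chromosome thus describe the listed rows only.

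A group of 3 rows within 385 kb on chromosome 13 (67268742 to 67654088) was higher throughout. It lies in a region of KRAB zinc finger genes that includes the regulators of sex-limited protein candidates (Rslcan), to which RefSeq assigns Zfp456 and Zfp748. Zfp456 (67464520 to 67476702) had means of -0.13 in Vector and 0.10 in Grp94 knockdown, a difference of 0.22. Zfp748 (67639590 to 67654088) had means of -0.10 and 0.09, a difference of 0.19.

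The other row of the group carries the symbols A530054K11Rik (now Zfp729a), Zfp87, Zfp738 and Zfp748. It spans only 138 bases, from 67268742 to 67268879 on the plus strand, and had means of -0.09 and 0.05, a difference of 0.14. It shares the symbol Zfp748 with the row above, so these rows are not 3 separate genes. The row of Zfp748 alone starts 371 kb away and lies on the minus strand, as do the printed promoters of Zfp738 and Zfp748. The place and strand of the shared row are thus not those of Zfp748, although the length of the group is measured from it. No listed row of another gene family lay within 1 Mb of them. The differences of the group, from 0.14 to 0.22, lay below the median of 0.23 over the 24 higher members.

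Zfp799 (32952388 to 32967160) and Zfp81 (33470929 to 33495775, a KRAB zinc finger gene) lay 504 kb apart on chromosome 17, both on the minus strand. Zfp81 had means of -0.12 in Vector and 0.15 in Grp94 knockdown, a difference of 0.28, and Zfp799 a difference of 0.34 as given above. Of 8 other rows listed within 1 Mb of the pair, 2 were higher and 6 lower, beside 1434 of all 2395 listed rows that were lower. Between the pair lay Cyp4f13, a cytochrome P450 gene, with a difference of -0.33, and the row of the class I antigen gene H2-K1 reached -0.45. The genes around this pair were thus of mixed direction.

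**Figure D2:**
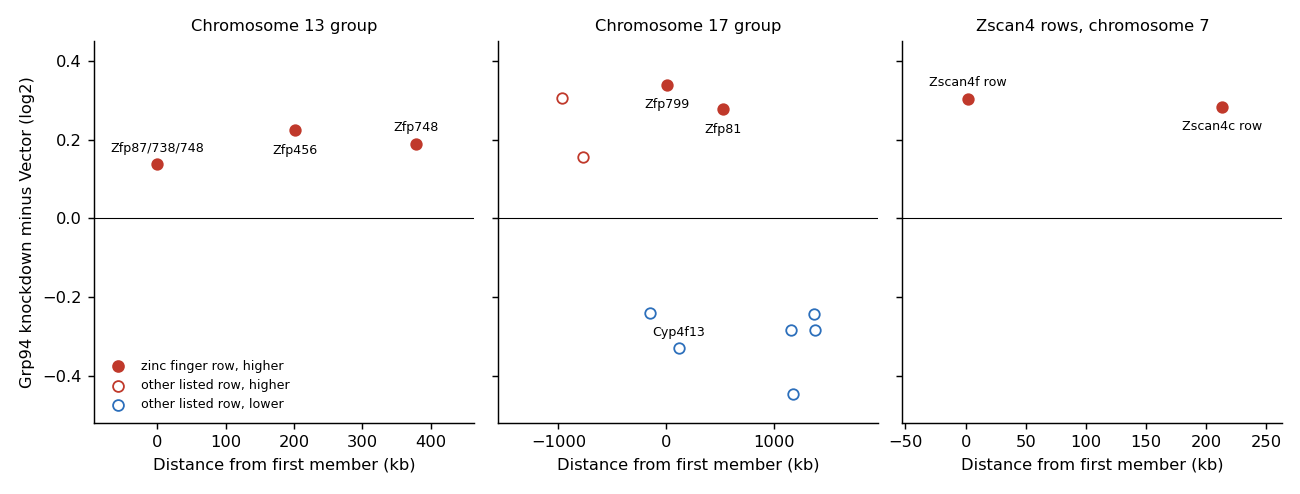
Difference of means (Grp94 knockdown minus Vector, log2) against distance in kb from the first member, for the 3 groups of members lying at most 1 Mb from each other; filled circles are zinc finger rows and open circles other listed rows within 1 Mb. All 7 zinc finger rows lie above 0, between 0.14 and 0.34, while 6 of the 8 other rows on chromosome 17 lie below 0. Of all 2395 listed rows, 1434 lie below 0.

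The 6 lower members lay apart from these groups. Zfp180 had the lowest difference, with a mean of 0.25 in Vector and -0.29 in Grp94 knockdown, a difference of -0.54 or 1.46-fold (chromosome 7, 24866943 to 24892724). It lay 0.17 below the next member, and 161st from the bottom among all 2395 listed rows. Zfp420 (chromosome 7, 30645030 to 30700645), whose human counterpart is known as Apak and restrains p53, had means of 0.23 and -0.14, a difference of -0.37 or 1.29-fold, just inside a fold of 1.3. Zfp395 (chromosome 14, 65994230 to 66015808), whose human counterpart is induced by hypoxia, had means of 0.18 and -0.18, a difference of -0.36.

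The other 3 lower members had differences of 0.20 or less in size. Zfp446, a SCAN zinc finger gene (chromosome 7, 13563197 to 13569658), had means of 0.06 in Vector and -0.14 in Grp94 knockdown, a difference of -0.20. Zfp53, a KRAB zinc finger gene (chromosome 17, 21616662 to 21647441), had means of 0.09 and -0.10, a difference of -0.19. Zfp187, which RefSeq now names Zscan26 (chromosome 13, 21534099 to 21541324), had means of 0.08 and -0.07, a difference of -0.15. This last gene lay 45727 kb from the chromosome 13 group, and so shares only the chromosome with it. In all 6 the Vector mean was above 0 and the knockdown mean below it, which with centred rows mostly restates that they were lower.

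The number of probes in a member row ran from 15 to 46 (median 28.5, against 30 over all listed rows). Spearman's rho between the number of probes and the difference was -0.09 across the 30 rows, given as a description because the rows come from the same arrays. The 26 members with 1 symbol split into 20 higher and 6 lower, with a median of 0.18, and the 4 rows with several symbols were all higher.

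Of 416 protein-coding Zfp and Zscan genes of RefSeq, 32 (7.69%) were listed, whereas 10.3% of all protein-coding genes were (2246 of 21900). The listed zinc finger genes were thus a small part of the family, and no value was used for the others.

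The partners of KRAB zinc finger proteins were looked up in a list of 40 genes of the Trim28 and heterochromatin machinery. Of these, 6 were in listed rows, 3 higher and 3 lower, with a median difference of -0.10. Ehmt1, which encodes the methyltransferase GLP, had means of 0.16 in Vector and -0.15 in knockdown, a difference of -0.32. Atf7ip, the partner of Setdb1, had a difference of -0.29, and the row of the histone chaperone gene Rbbp4, shared with Sync, one of -0.39. Among the higher, Gatad2b (0.21) and Chd3 (0.11) encode parts of NuRD, and the modifier gene Sumo2 stood in a shared row at 0.08. Trim28, Setdb1 and Chd4 were not listed. The share of higher rows among these partners, 50%, was near the 40.1% of all listed rows, and the difference from the zinc finger members was not tested.

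Other C2H2 zinc finger genes, such as those of the Zbtb, Klf and Egr families, gave 17 listed rows, 11 higher (64.7%, beside 40.1% of all listed rows) and 6 lower, with a median difference of 0.19, the same as that of the Zfp and Zscan members to 2 decimals. Of these rows, 1 passed a fold of 1.3 upwards and 3 downwards. The highest was Zkscan1 at 0.43, and Rest, the repressor of neuronal genes, had a difference of 0.29. The immediate early gene Egr1 had one of 0.32. Lower genes went further down than most members, with Bcl11a and Gzf1 both at -0.47 and Zbtb7b at -0.43. Zinc-binding genes of other fold or function, such as RNA-binding Zc3h and Zcchc genes, gave 11 rows, 7 higher (63.6%) and 4 lower, with a median of 0.19 and none past a fold of 1.3. Both of these lists thus also had medians above that of all listed rows.

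**Figure D3:**
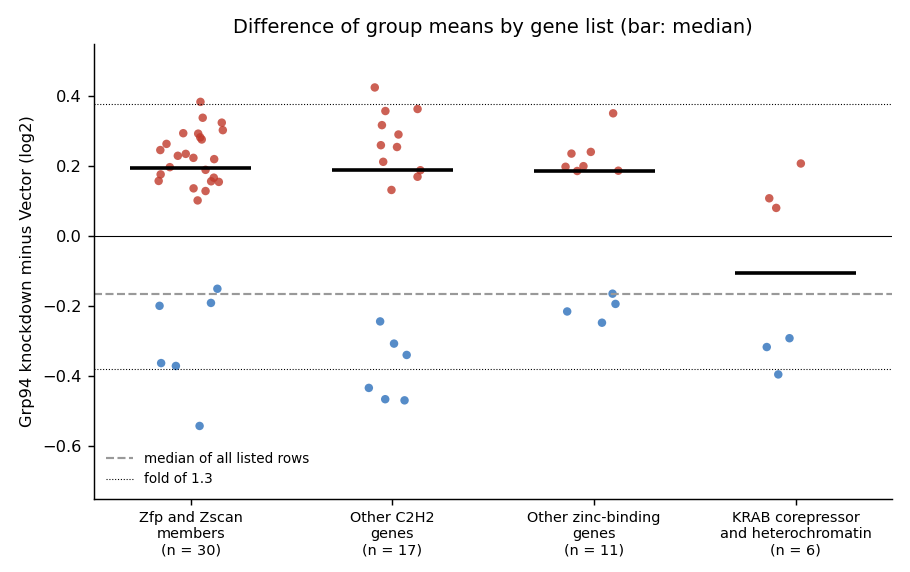
Difference of means (Grp94 knockdown minus Vector, log2) of each row in 4 gene lists; each point is a transcript cluster, the bar is the median of the list, the dashed line the median of all listed rows (-0.16) and the dotted lines a fold of 1.3. The medians of the first 3 lists lie near 0.19 and that of the corepressor list at -0.10.

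Promoters were then read for the letters that the rule had not used. CCAAT on either strand was present in 16 of the 23 promoter genes (69.6%), in 13 of 19 that were higher and 3 of 4 that were lower. It was present in 42.3% of all protein-coding genes with a promoter (7402 of 17492), in 45.5% of listed protein-coding genes (827 of 1817) and in 51.3% of all Zfp and Zscan genes of the reference (178 of 347). The 16 genes include 3 Zscan4 copies and the Zfp799 and Zfp81 pair, which are not independent sequences. The 23 matches were split into 12 on the strand of the gene and 11 on the opposite strand, and in 11 genes a match started within the 120 bases before the start. Matches were counted in every annotated promoter of a gene. Those of Zfp821, at -58 in promoter 1 and -96 in promoter 2, may be the same word.

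The ACTACA element was present in 6 of the 23 genes (26.1%), and in 2.92% of all protein-coding genes (511 of 17492), 4.29% of listed protein-coding genes (78 of 1817) and 17.3% of the Zfp and Zscan genes of the reference (60 of 347). The letters are thus frequent in promoters of this gene family as a whole. Those printed above hold it at -69 in Zfp456, -26 in Zfp748, -56 in Zfp738, -92 in Zfp420 and -23 in Zfp180. Of the 6 genes, 5 also hold CCAAT, and no match of the one overlapped a match of the other. Zfp456, Zfp748 and Zfp738 lie together on chromosome 13 and may not be independent sequences. The element was also picked after these promoters had been read, so its share among the members is a description. The promoters of Zfp456, Zfp748 and Zfp738 were identical in 49.9% to 54.8% of aligned positions in pairs, and those of Zfp799 and Zfp81 in 56.0%. No unrelated promoters were aligned with the same gap scores, so these shares cannot be read as likeness beyond that of unrelated sequences. The element stood in promoters of members of both directions, in 4 of 19 higher genes (21.1%) and 2 of 4 lower genes (50%), and the difference was not tested. A match is a run of letters, and binding was not measured here.

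**Figure D4:**
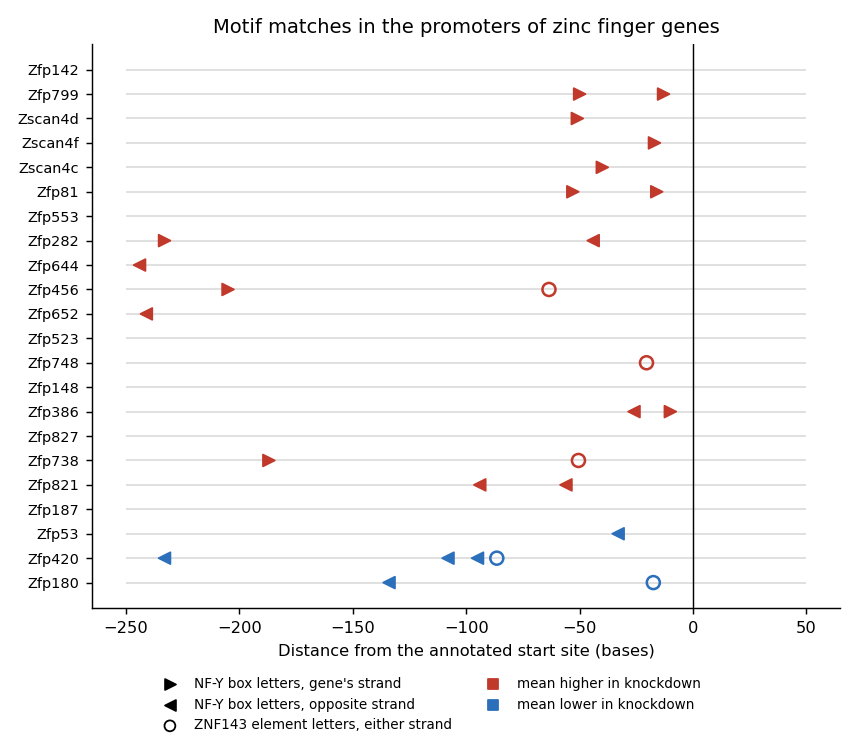
Position of the motif matches in the promoters of the genes named, in bases from the annotated start, with genes ordered by their difference of means; triangles are CCAAT (NF-Y box) words pointing along the strand they lie on, rings the ACTACA (ZNF143) element. Red genes had a higher and blue genes a lower mean in Grp94 knockdown, and rings stand on 3 red and 2 blue genes. Matches from several annotated promoters of a gene are drawn on the same line.

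The promoters of the members had a median GC content of 51% against 56.3% over all protein-coding genes, and a median of 12 CpG against 13. Listed protein-coding genes had medians of 60.3% and 19 CpG. The Zfp and Zscan genes of the reference had medians of 54.7% and 13 CpG.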

How the data were processed

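N2a cells were transfected with miR RNAi vectors with Lipofectamine, RNA was labelled with the Ambion WT Expression kit, and the arrays were analysed by the authors in Agilent GeneSpring GX, leaving out genes below the 20th percentile of expression. The table deposited by the authors holds log2 means of both groups, centred per transcript cluster, beside p-values, adjusted p-values, direction and fold changes of their own comparison, which were not used. Summarization, normalization and genome build are not given in the sources used here. Groups came from the treatment labels.

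The difference is the knockdown mean minus the Vector mean, and the fold is 2 to its absolute power. The members and lists were chosen with earlier results of these data known. Every member row is named except 1, which is counted but not reported here. Rows at most 1 Mb from the next member formed a group. Promoters were searched on both strands, and identity came from global alignment (match 1, mismatch -1, gap opening -2, extension -0.5). Without values per array there was no test, SD or standard error, and 4 arrays per group limit the precision. Scripts were tested on simulated data (python 3.11.15, pandas 2.3.3, biopython 1.88).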

Additional observations from a re-analysis of the deposited data

How the results depend on the processing

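Across 21 alternatives, 17 were classed as the same as the values reported and 4 as moved. Some of those classed as the same still changed a count, as given below. The number of members past the fold threshold was 2 at 1.3, 12 at a fold of 1.2 (9 higher and 3 lower) and 0 at 1.5. When differences were re-centred on the median of all listed rows (-0.16), 14 members passed 1.3, all higher, and the median difference was 0.36 in place of 0.19, with 25 higher and 5 lower. Re-centring raises every listed row by the same amount. The shares of all listed rows past 1.3 after re-centring, or past 1.2 or 1.5 before it, are not given here. The counts of members past a fold in these alternatives are thus no result about the members. Counting each symbol gave 34 higher and 6 lower, rows with 1 symbol 20 and 6, and a wider set of name prefixes 28 and 8. An alternative added after seeing the data, symbols updated by Entrez identifier, gave 24 and 7. With gaps of 0.5 Mb or 5 Mb the members formed 2 or 4 genomic groups in place of 3. No paired analysis was possible because the table holds only the mean of each group, so leaving out single arrays was not run either. The search for finger and KRAB patterns in proteins was not run because no protein sequences were used here. The table lists rows that passed the authors' limits, and both means depend on an unstated normalization.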

Other observations

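When symbols were updated through Entrez identifiers, a choice made after seeing the data, the members gained 1 row and lost 0. The row is BC066028, which RefSeq now names Zfp941, at 147993973 to 148008031 on chromosome 7. Its mean was 0.14 in Vector and -0.08 in Grp94 knockdown, a difference of -0.22.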
